A study of Mus musculus with 4 samples.

Results

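Presomitic mesoderm is the unsegmented mesoderm that lies along each side of the tail end of the embryo and buds off somites at its front. New cells enter it from a *T*-expressing progenitor region under Wnt and Fgf signalling, *Tbx6* directs them to the paraxial fate, and a clock of Notch-controlled genes, with the repressor *Hes7* at its core and *Dll1* as a Notch ligand, paces the formation of somites. As cells move forward they meet retinoic acid, made by the enzyme of *Aldh1a2*, switch on *Mesp2* and *Ripply2* at the boundary of the next somite, and then turn on somite genes such as *Meox1* and *Tcf15*. In the gastruloids studied here, aggregates of mouse embryonic stem cells that were steered to cardiac fates, day 4 was the earliest time sampled.

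The 179 cells described here were chosen by their own UMI counts (a UMI marks 1 captured RNA molecule) in the day 4 library. Cells were first kept with at least 2000 UMIs and a mitochondrial share under 20%, which left 7202 of 7324 barcodes. A cell was selected on the sum of its *Tbx6*, *Hes7* and *Dll1* UMIs, which had to reach 3 with at least 2 of the 3 genes found, and it had to hold fewer than 3 UMIs of *T* and fewer than 2 of *Eomes*, T-box genes of the primitive streak. The 179 cells were 2.49% of the kept day 4 cells (95% exact binomial interval 2.14 to 2.87%) and were taken from 31330 barcodes in the whole series. The levels of these 5 genes are therefore a description of the rule and not a result. The cells are called presomitic mesoderm-like (PSM-like) cells below, and the remaining 7023 kept day 4 cells are called other cells.

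The series held 4 libraries, 1 each for days 4, 5, 6 and 11, made with the Chromium 3′ v3.1 kit from wild type gastruloids of 1 mouse embryonic stem cell line, Zx1. Each library pooled several gastruloids that had been taken apart with trypsin. The gastruloids of all days had received a pulse of the Wnt agonist Chiron before day 4, and bFGF, VEGF and ascorbic acid, which favour cardiac fates, were added from day 4. With 1 library per day there was no replicate, so no difference was tested between days or between sets of cells. All intervals are exact 95% intervals that cover counting error only, and cells of 1 library are not replicates. The 4 libraries held between 149169498 and 236714826 UMIs, with medians of 12082 to 28400.5 UMIs in kept cells, and any pair of them shared 5 to 23 barcode sequences. None of the 179 PSM-like barcodes was shared with a PSM-like cell of another day.

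The depth of PSM-like cells was close to that of the other cells, with a median of 24241 UMIs (range 9119 to 116639) and 4584 genes against 25347 UMIs and 4714 genes. The median mitochondrial share was 2.88% against 2.30%. Levels are given as CPM, the UMIs of a gene per 1000000 UMIs summed over a set of cells, and are compared between sets for the same gene, not between genes. A gene was called higher or lower where the ratio of (CPM + 10) between the 2 sets was at least 2 or at most 0.5, among genes whose mean CPM over both sets was at least 10. A gene that is low in 1 set can pass this limit through its level in the other set. Counts of calls and median ratios within a list are tilted by such genes in every comparison below. The printed ratios are plain ratios of CPM with the interval of their counts.

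Of 371 kept cells that met the *Tbx6*, *Hes7* and *Dll1* condition, 172 were left out of the PSM-like cells because they held 3 or more *T* UMIs and a further 20 because of *Eomes* alone. The 172 cells, called *T*-high cells, serve below as the nearest comparison, and their median depth was greater, at 34839.5 UMIs. Among the 179 PSM-like cells all 3 genes were found in 83, *Tbx6* and *Dll1* without *Hes7* in 53, *Hes7* and *Dll1* without *Tbx6* in 23, and *Tbx6* and *Hes7* without *Dll1* in 20. No *T* UMI was found in 91 cells, 1 in 53 and 2 in 35, and 166 cells held no *Eomes* UMI. The sum of the 3 genes was exactly 3 in 41 cells and 10 or more in 25.

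Levels of genes that the rule did not use are given here for the cells next to its limits. The 41 cells with a sum of 3 had an *Rspo3* level of 363 CPM and a *Foxc1* level of 54.8 CPM, while the 61 cells with a sum of 2, just outside the rule, had 269 and 29.7 CPM. *Hand1*, a gene of lateral and extraembryonic mesoderm, was at 96.5 CPM just inside and 182 CPM just outside. At the *T* limit the 35 cells with 2 *T* UMIs had 539 CPM of *Rspo3* and 162 CPM of *Aldh1a2*, and the 36 cells with 3 *T* UMIs had 598 and 41.6 CPM. *Aldh1a2* thus was lower outside the *T* limit, and *Hand1* was higher outside the limit on the sum than inside it.

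Upstream sequences are shown of *Hes7*, a gene of the rule, and of *Lfng* and *Hes5*, as Notch targets of the clock. They are not the Notch genes called higher below. Each begins 250 bases before the RefSeq transcription start and ends before the earlier of the RefSeq and GENCODE starts (GRCm38.p6, mm10, plus strand, 5′ to 3′). For *Hes7* and *Lfng* the GENCODE start is the earlier. Capitals mark TGGGAA, the core of the motif bound by RBPJ, the DNA-binding partner of Notch, or its reverse complement.
Hes7, chr11:69120203-69120403: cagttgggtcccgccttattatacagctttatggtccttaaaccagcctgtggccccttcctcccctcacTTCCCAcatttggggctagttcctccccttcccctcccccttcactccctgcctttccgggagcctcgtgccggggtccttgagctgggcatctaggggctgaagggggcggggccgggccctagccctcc
Lfng, chr5:140607091-140607319: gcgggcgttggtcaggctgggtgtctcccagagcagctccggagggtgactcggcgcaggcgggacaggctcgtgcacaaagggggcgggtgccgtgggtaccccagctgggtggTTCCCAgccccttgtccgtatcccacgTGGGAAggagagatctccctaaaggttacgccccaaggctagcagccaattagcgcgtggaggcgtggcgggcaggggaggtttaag
Hes5, chr4:154960673-154960922: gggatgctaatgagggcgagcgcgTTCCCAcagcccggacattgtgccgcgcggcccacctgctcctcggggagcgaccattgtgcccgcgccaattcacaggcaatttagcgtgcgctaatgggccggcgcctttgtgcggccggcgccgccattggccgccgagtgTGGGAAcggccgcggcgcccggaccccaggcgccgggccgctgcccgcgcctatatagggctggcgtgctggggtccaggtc
The printed *Hes7* stretch held 1 match on the reverse strand, and those of *Lfng* and *Hes5* held 1 on each strand. Over windows from 250 bases before to 50 after each start, TGGGAA on either strand was present for 7651 of 27025 genes (28.3%), for 6 of 13 genes with an entry among the Notch genes listed below plus *Hes7* and *Dll1* (46.2%), which among the 4 Notch genes called higher below include only *Maml3*, and for 8 of 41 genes with an entry among those called higher in PSM-like cells (19.5%). GGTGTGA, the core of the T-box motif, on either strand was present for 4.60% of all genes, for 1 of the 41 (*Hoxd9*) and for 0 of the 13. The letters alone do not show a bound site, and the 2 motifs do not overlap in sequence.

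The given marker *Rspo3*, a secreted amplifier of Wnt signalling expressed in the tail bud and presomitic mesoderm, was found in 177 of the 179 PSM-like cells, with a median of 12 UMIs, quartiles of 8 and 19 and a highest value of 52. Its summed level was 502 CPM (483 to 522) in PSM-like cells and 94.1 CPM in other cells, a ratio of 5.34 (5.12 to 5.56). The other given marker, *Aldh1a2*, the retinoic acid-producing enzyme of mesoderm, was at 140 CPM (130 to 150) against 46.4 CPM, a ratio of 3.01 (2.79 to 3.25), but 57 of the 179 cells held no UMI of it and the highest value was 29. Both markers that the rule did not use were called higher. *Rspo3* was found in nearly all cells and *Aldh1a2* in a part of them. With no limit on *T* and *Eomes*, the ratio of *Aldh1a2* was 1.69 and it was not called. The markers were given with earlier results of these data known, so their calls are no independent support for the name of the cells. Free RNA can place UMIs in cells that do not express a gene, so the share of positive cells was also taken with every cell thinned to 10000 UMIs. *Rspo3* was then found in 92.7% of PSM-like cells, 35.9% of other cells, 23.0% of endoderm cells and 22.2% of pluripotent cells (the last 2 sets had medians of 38672 and 37730 UMIs before thinning and are given as cells that should lack the gene). For *Aldh1a2* the shares were 50.6%, 25.9%, 2.80% and 6.70% in the same order. The presomitic, clock and boundary genes *Msgn1*, *Lfng*, *Mesp2* and *Ripply2*, which mark presomitic mesoderm in the embryo, were scarce, with 36, 43, 24 and 15 UMIs over all 179 cells. They were too low for a call, but their levels were above those of other cells. *Msgn1* was at 7.03 against 0.4501 CPM and *Lfng* at 8.397 against 1.004 CPM. *Mesp2* was closer to the other cells, at 4.69 against 2.701 CPM. *Ripply2* was at 2.93 against 0.324 CPM, with 10 of its 15 UMIs in 1 cell.

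The rule genes themselves were at 69.7 CPM (62.7 to 77.3) for *Tbx6*, 75.8 CPM (68.4 to 83.7) for *Hes7* and 77.7 CPM (70.3 to 85.7) for *Dll1*, against 4.66, 6.44 and 4.02 CPM in other cells. Their highest values in a cell were 6, 11 and 12 UMIs. In *T*-high cells, which met the same condition, they were at 46.9, 98.0 and 52.7 CPM.

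Across the whole table, 7228 genes were compared with the other cells. Of these, 56 genes (0.775%) were called higher in PSM-like cells and 61 genes (0.844%) lower, with the rule genes left out of both counts, and the median log2 ratio over all tested genes was 0.00. These shares are the background for each list that is compared with the other cells below. Among the genes with the highest ratios, *Cited1*, a transcriptional coregulator, was at 271 CPM against 38.2 CPM (ratio 7.08, 6.69 to 7.50) and was found in 168 cells. *Gbx2*, a homeobox gene, was at 53.1 CPM against 8.67 CPM (6.12, 5.37 to 6.96). *Foxb1*, a forkhead gene, was at 35.3 against 6.66 CPM, *Arg1*, which encodes arginase, at 33.2 against 5.76 CPM, and *Ptprz1*, a receptor phosphatase, at 42.8 against 5.32 CPM, the last with a ratio of 8.04 (6.93 to 9.30). *Ptn*, the secreted growth factor that binds this receptor, was also higher, at 59.95 against 14.7 CPM (4.08, 3.62 to 4.59). Each of these genes was found in between 73 and 168 of the 179 cells.

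**Figure D1:**
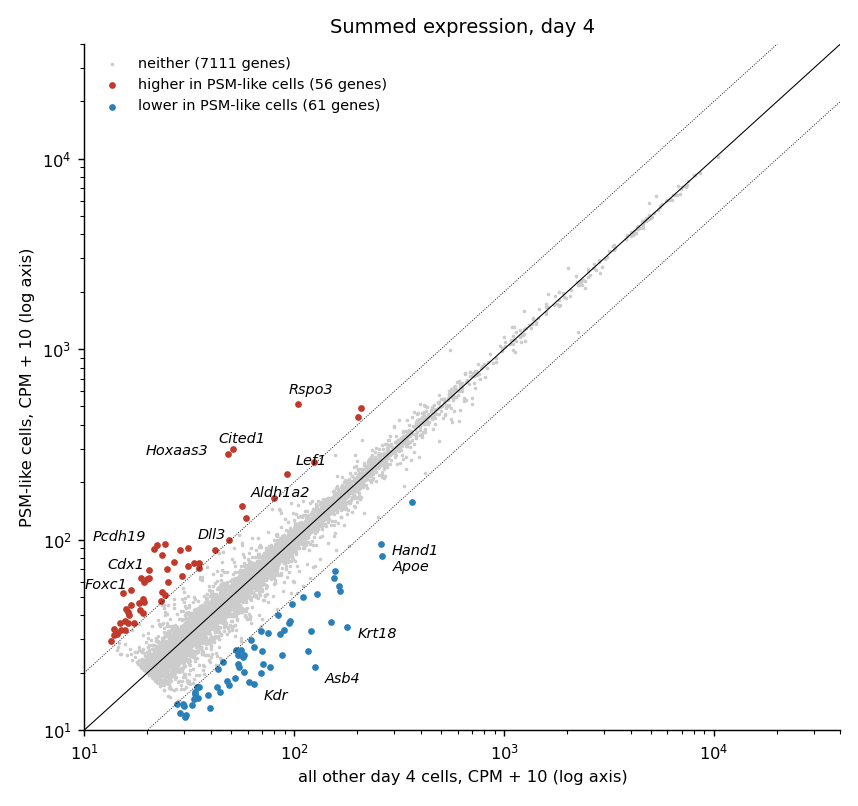
Level of each tested gene in the other day 4 cells (horizontal) and in the 179 PSM-like cells (vertical), as CPM plus 10 on log axes, 1 point per gene. Red points are the 56 genes called higher and blue points the 61 called lower, and the other genes lie along the diagonal.

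Some members of the Notch pathway were higher. Of 14 Notch and clock genes besides *Hes7* and *Dll1*, 9 were measured well enough to compare, and 4 of them were called higher and none lower, with a median log2 ratio of 0.03. Over all tested genes 0.775% were called higher. Of the 4, *Nrarp* was under 10 CPM in other cells and passed the limit on mean CPM through PSM-like cells. The ligand-like gene *Dll3*, which acts within the cell to dampen Notch, was at 80.7 CPM (73.1 to 88.8) against 21.3 CPM (ratio 3.79, 3.42 to 4.19) and was found in 147 cells. The receptor gene *Notch1* was at 66.2 against 16.9 CPM (3.92, 3.50 to 4.39), the feedback target *Nrarp* at 36.7 against 8.27 CPM (4.44, 3.80 to 5.16) and the coactivator *Maml3* at 63.1 against 21.3 CPM (2.96, 2.63 to 3.31). The other tested members were near their level elsewhere, with *Rbpj*, the DNA-binding partner, at 50.4 against 49.1 CPM and the receptor *Notch2* at 14.6 against 15.2 CPM. *Hes1*, another Notch target, was at 110 against 163 CPM, a ratio of 0.671 (0.617 to 0.730) that did not reach the limit for a lower call. *Lfng*, the glycosyltransferase that oscillates with the clock, and *Hes5* were below the level needed for a call. *Lfng* was found in 36 cells at up to 3 UMIs, at 8.397 against 1.004 CPM (8.37, 5.89 to 11.6), and *Hes5* at 12.3 against 1.91 CPM (6.45, 4.87 to 8.42). *Heyl* had 0 UMIs in PSM-like cells, which allows up to 3 counts in 5120870 UMIs.

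Genes of the posterior growth zone were partly higher. Of 18 genes in this list, 11 were tested, 3 were higher, 1 was lower, and the median log2 ratio was 0.51. Beside *Rspo3*, the higher genes were *Cdx1* and *Cdx2*, homeobox genes that pattern the trunk and tail, at 73.4 against 13.4 CPM (5.47, 4.90 to 6.09) and 120 against 49.1 CPM (2.45, 2.26 to 2.66). *Cdx4* was too low for a call, at 15.2 against 2.26 CPM, and its UMIs were concentrated, since 29 of the 179 cells held any. The growth factor gene *Fgf8* was at 146 against 86.8 CPM (1.68, 1.56 to 1.81) and *Wnt5a* at 69.5 against 40.5 CPM (1.72, 1.54 to 1.91), both short of the limit. *Cyp26a1*, which breaks down retinoic acid at the tail end of the embryo, was the lower member, at 11.5 against 44.6 CPM (0.258, 0.197 to 0.334).

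Readouts of Wnt and Fgf signalling were mixed. Of 15 Wnt targets, 10 were tested, 2 were higher and 1 lower, with a median log2 ratio of 0.28. *Lef1*, a nuclear effector of Wnt and itself a target, was at 212 against 82.1 CPM (2.58, 2.43 to 2.75), and 178 of the 179 cells held at least 1 UMI of it. The antagonist *Nkd2* was at 21.9 against 4.26 CPM (5.13, 4.18 to 6.25). The inhibitor *Apcdd1* was the lower gene, at 3.71 against 19.4 CPM (0.191, 0.115 to 0.298). Both *Nkd2* and *Apcdd1* were under 10 CPM in 1 of the 2 sets and passed the limit on mean CPM through the other. *Axin2*, a widely used Wnt readout, was at 38.5 against 30.7 CPM (1.25, 1.08 to 1.44). Of 14 Fgf targets, 12 were tested and 0 were called in either direction, with a median log2 ratio of 0.24, and *Dusp6*, a phosphatase that restrains the Fgf cascade, was at 34.0 against 14.1 CPM (2.41, 2.06 to 2.81), which the added 10 CPM kept under the limit.

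Genes that make, bind or sense retinoic acid were in part higher. Of 11 such genes, 7 were tested, 3 were higher and 0 were lower, with a median log2 ratio of 0.82. *Aldh1a2* was among the higher genes, as was the binding protein gene *Crabp2*, at 65.4 against 25.1 CPM (2.61, 2.33 to 2.91). *Crabp1* was at 267 against 147 CPM (1.81, 1.72 to 1.92) and the receptor gene *Rarg* at 22.3 against 10.1 CPM (2.21, 1.82 to 2.67), neither of which was called.

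Genes of the segmental boundary and of formed somites were mostly too low to compare. Of 13 boundary genes, 4 were tested and 1 was higher, namely *Pcdh19*, a protocadherin of the presomitic mesoderm, at 84.4 against 14.2 CPM (5.96, 5.38 to 6.59). *Snai1*, a repressor of epithelial genes, was at 74.8 against 33.9 CPM and the guidance receptor *Epha4* at 66.4 against 35.3 CPM, without a call. *Ripply1*, *Cer1*, *Tbx18* and *Uncx* had 0 UMIs in PSM-like cells. They were at 0.198, 0.554, 0.0405 and 0.00900 CPM in other cells, too low for the 0 counts to show a difference. Of 15 somite genes, 2 were tested. *Foxc1*, a forkhead gene needed for paraxial mesoderm, was higher, at 52.9 against 10.4 CPM (5.09, 4.47 to 5.78), and the cadherin gene *Cdh11* was lower, at 12.3 against 44.04 CPM. Its relative *Foxc2* was at 16.2 against 3.59 CPM (4.52, 3.56 to 5.67), below the level needed for a call. *Meox1* was found in 25 cells and *Tcf15* in 35, at up to 3 and 8 UMIs, and *Meox2*, *Pax1*, *Pax9*, *Nkx3-2*, *Aldh1a1* and *Myf5*, which mark formed or differentiating somites, had 0 UMIs. *Meox2*, *Pax1*, *Nkx3-2* and *Myf5* were near absent from the other cells as well, with 3, 4, 0 and 7 UMIs.

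**Figure D2:**
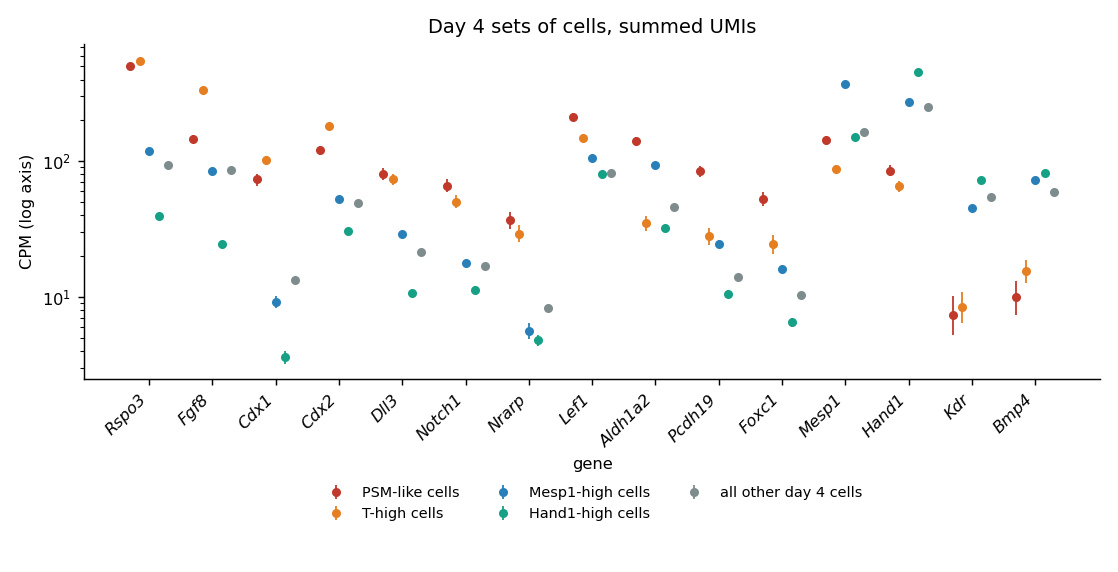
Level of 15 genes, in CPM of summed UMIs, in PSM-like cells and in 4 other sets of day 4 cells; bars are exact 95% Poisson intervals, counting error only. *Rspo3*, *Lef1*, *Dll3* and *Notch1* are high in both PSM-like and *T*-high cells, *Aldh1a2* and *Pcdh19* are higher in PSM-like than in *T*-high cells, and *Hand1*, *Kdr* and *Bmp4* are higher in the *Mesp1*-high and *Hand1*-high cells.

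The Hox genes were the list with the most members called. Hox genes encode homeobox factors that give position along the head to tail axis, and paralogue groups with higher numbers act further towards the tail. Of 39 Hox genes, 15 were tested, 10 were called higher and 0 lower, where 0.775% of all tested genes were called higher. The median log2 ratio was 1.18, against 0.00 over all tested genes. The called genes *Hoxd4*, *Hoxc8* and *Hoxb8* were under 10 CPM in other cells, at 6.74, 5.58 and 9.17 CPM. They passed the limit on mean CPM through PSM-like cells, so the count and the median are tilted towards higher. The whole list, tested or not, summed to 896 against 306 CPM. *Hoxb1*, a group 1 gene, was found in 165 cells and was at 155.4 CPM (145 to 167) against 69.7 CPM in other cells (2.23, 2.07 to 2.39). *Hoxb4* was at 78.5 against 18.7 CPM (4.202, 3.78 to 4.66) and *Hoxd4* at 44.7 against 6.74 CPM (6.64, 5.75 to 7.63). *Hoxb9* was at 59.2 against 10.3 CPM (5.74, 5.08 to 6.48) but was found in 74 cells, at up to 22 UMIs. Summed over paralogues, groups 1 to 3 were at 426 CPM in PSM-like cells against 193 CPM in other cells, groups 4 to 6 at 219 against 51.9 CPM, groups 7 to 9 at 245 against 56.2 CPM and groups 10 to 13 at 5.27 against 5.24 CPM, the last from 27 UMIs. None of the 12 genes of groups 10 to 13 was high enough to be tested. The RNAs *Hoxaas3* (288 against 41.0 CPM) and *Hoxb5os* (79.1 against 11.4 CPM) lie within the Hox clusters, where genes overlap each other and antisense RNAs, so the split of reads among them is uncertain.

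**Figure D3:**
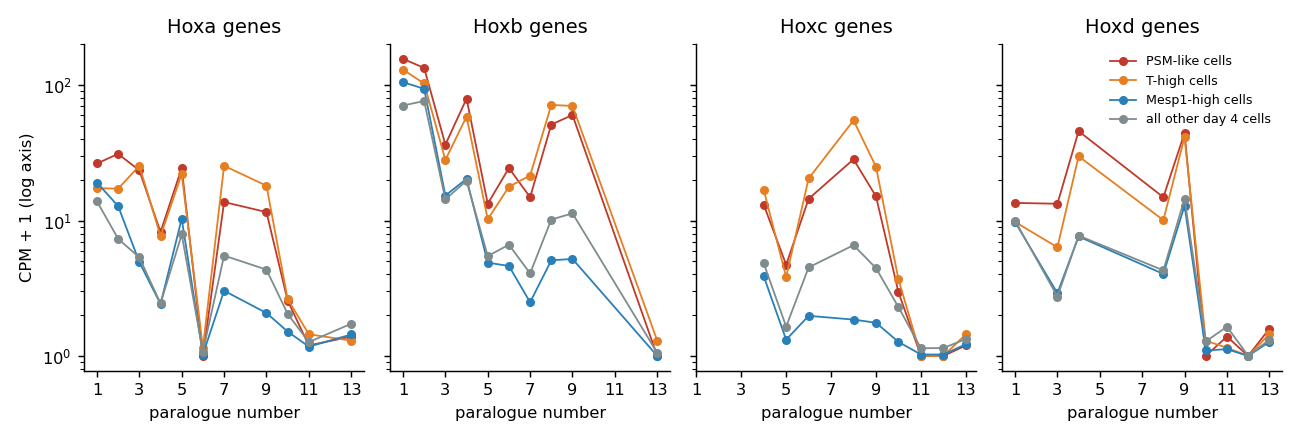
Level of each Hox gene as CPM plus 1 on a log axis, by paralogue number, for the 4 clusters and 4 sets of cells. Summed over groups 7 to 9, PSM-like cells were at 245 CPM and *T*-high cells at 329 CPM, against 29.4 CPM in *Mesp1*-high and 56.2 CPM in other cells, and groups 10 to 13 summed to under 10 CPM in every set.

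Among the genes lower in PSM-like cells, those of lateral and cardiac mesoderm formed the largest group of any list. Of 17 lateral and cardiac genes, 11 were tested, 5 were lower and 0 higher, where 0.844% of all tested genes were called lower. The median log2 ratio was -0.81. Of the 5, *Myl7* and *Bmp4* were under 10 CPM in PSM-like cells and passed the limit on mean CPM through the other cells. The count and the median are therefore tilted towards lower. The whole list, tested or not, summed to 279 CPM against 720 CPM, with *Gata5* and *Tcf21* at 0 UMIs. *Hand1* was at 85.1 against 250 CPM (0.341, 0.309 to 0.374), *Hand2* at 12.1 against 61.1 CPM (0.198, 0.152 to 0.254) and *Gata6* at 23.4 against 79.7 CPM (0.294, 0.244 to 0.352), all 3 of which encode transcription factors of early heart and lateral mesoderm. *Bmp4*, a growth factor of lateral and extraembryonic mesoderm, was at 9.96 against 59.6 CPM (0.167, 0.124 to 0.2199), and *Myl7*, an atrial myosin light chain, at 7.81 against 50.9 CPM (0.153, 0.110 to 0.209). The residual signal was uneven, since 90 of the 179 cells held no *Hand1* UMI while 12 held 10 or more. *Isl1* was at 20.3 against 20.97 CPM (0.969, 0.790 to 1.18) and *Prrx2* at 51.2 against 50.2 CPM (1.02, 0.898 to 1.15).

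Beyond that list, *Asb4* had the lowest ratio of (CPM + 10) outside the rule genes, at 11.5 against 116 CPM (0.0992, 0.0755 to 0.128). Other genes called lower were *Ahnak*, at 3.12 against 29.7 CPM (0.105, 0.0600 to 0.171), and the VEGF receptor gene *Kdr*, at 7.42 against 54.5 CPM (0.136, 0.0963 to 0.187). The keratin genes *Krt18* and *Krt8* were at 24.6 against 168.6 CPM and 26.8 against 140 CPM, and 10 cells carried 88.9% and 70.1% of their UMIs. The myelin gene *Pmp22* was at 16.01 against 106 CPM and the semaphorin receptor gene *Nrp1* at 14.6 against 77.4 CPM. Of 16 adhesion and epithelial to mesenchymal transition genes, 12 were tested, 2 were lower and 0 higher: the epithelial genes *Epcam*, at 22.3 against 64.7 CPM, and *Cldn7*, at 1.76 against 20.2 CPM. Vimentin (*Vim*) was at 213 against 410 CPM, without a call, and *Cdh2* (N-cadherin) at 92.8 against 87.0 CPM.

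The lists for other cell types held few calls. Of 10 primitive streak genes, 8 were tested and 1 was lower (*Tdgf1*, the Nodal coreceptor, at 16.01 against 59.99 CPM). Of 10 blood and endothelial genes, 3 were tested and 1, *Kdr*, was lower, the list summing to 37.9 against 94.2 CPM with *Tal1*, *Gata1* and *Cdh5* at 0 UMIs. Of 10 endoderm genes, 3 were tested and 1, *Trh*, was lower, the list summing to 73.2 against 196 CPM with *Hnf4a* at 0 UMIs. The 11 pluripotency genes (7 tested, *Tdgf1* lower) summed to 426 against 531 CPM, and *Dppa5a* was unevenly spread, with 90.3% of its UMIs in 10 cells. None of the tested genes was called in the lists for intermediate mesoderm (2 of 7 tested), neural tissue (3 of 10), germ cells (1 of 6), S phase (16 of 16) and G2 and M phases (16 of 16), and 0 of 7 notochord and node genes were high enough to test. The 2 cell cycle lists had median log2 ratios of 0.03 and 0.10. Of 7 stress genes, 4 were tested and 1, *Jun*, was lower, at 23.2 against 59.6 CPM.

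Some PSM-like cells also met the condition of another set. *Mesp1*, the factor of early cardiac mesoderm and, in the embryo, of the somite boundary, reached 5 or more UMIs in 44 cells, *Hand1* reached 10 or more in 12, the pluripotency genes *Zfp42* and *Dppa3* summed to 3 or more in 8, and *Sox17* and *Foxa2*, endoderm factors, both reached 2 in 1 cell, 57 cells in all with at least 1 of these. The score for mixed droplets (doublets) marked 12 of the 179 cells (6.70%), against 8.03% of other cells and 16.9% of *T*-high cells. With the 57 cells left out, 122 cells (1.71% of kept cells) remained, the ratio of *Rspo3* was 6.61, that of *Aldh1a2* 2.78 and that of *Hand1* 0.200. The count of lower genes was then 108 and that of higher genes 79, and these included all 61 and all 56 of the genes called with every cell. This alternative was chosen after seeing the data. It took out PSM-like cells alone, by their *Hand1*, *Mesp1*, pluripotency and endoderm UMIs, while other cells that met these conditions stayed. The ratio of *Hand1* was therefore fixed in part by the choice, and the counts of called genes were tilted by it.

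In a neighbour graph built without the 5 rule genes (2000 variable genes, 30 principal components, 20 neighbours), 34.3% of the neighbours of PSM-like cells were PSM-like, while these cells were 2.49% of kept cells. *T*-high cells made up 13.9% of the neighbours and 2.39% of kept cells, and *Mesp1*-high cells, defined below, 15.9% and 18.1%. The neighbourhood was not uniform: 111 of the 179 cells had at least 5 PSM-like cells among their 20 neighbours, and 16 had none.

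The comparison with the 172 *T*-high cells bears on how PSM-like cells differ from the cells next to them on the *T* scale, and *T* itself, at 24.0 against 226 CPM, was used to separate them. *Eomes* was not limited in *T*-high cells, and 14 of them held 2 or more *Eomes* UMIs. Of 7148 genes, 8 (0.112%) were higher in PSM-like cells and 30 (0.42%) lower. *Aldh1a2* was at 140 CPM in PSM-like and 35.1 CPM in *T*-high cells, a ratio of 3.99 (3.44 to 4.64). *Crabp1* was at 267 against 115 CPM (2.32, 2.12 to 2.53) and *Pcdh19* at 84.4 against 28.1 CPM (3.005, 2.53 to 3.58). The list of retinoic acid genes thus had 2 of 6 tested members higher, and that of boundary genes 1 of 4. *Osr1*, a factor of intermediate mesoderm, was at 38.9 against 11.7 CPM (3.31, 2.54 to 4.35), *Prrx2*, of lateral mesoderm, at 51.2 against 18.4 CPM, and *Pcolce2*, a collagen-processing enhancer, at 52.1 against 19.6 CPM. *Spink1* was also called, but 10 cells carried all of its 244 UMIs.

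Posterior genes were among those lower than in *T*-high cells. Of 16 tested posterior genes, 6 were lower and 0 higher, but *Fgf17*, *Fgf4*, *Wnt3a* and *Nkx1-2* were under 10 CPM in PSM-like cells and passed the limit on mean CPM through their level in *T*-high cells, so this count supports nothing about the list. *Fgf8* was at 146 CPM (136 to 157) in PSM-like and 335 CPM (321 to 349) in *T*-high cells, a ratio of 0.436 (0.401 to 0.474). *Fgf17* was at 9.57 against 48.9 CPM (0.196, 0.142 to 0.265), *Fgf4* at 8.20 against 26.4 CPM, *Wnt3a* at 5.27 against 23.9 CPM (0.2204, 0.141 to 0.333), *Wnt5b* at 19.7 against 52.7 CPM and *Nkx1-2*, a gene of bipotent axial progenitors, at 4.88 against 27.3 CPM. *Rspo3*, at 502 against 547 CPM, was not called. *Cdx1* and *Cdx2* were at 73.4 against 101 and 120 against 180 CPM, also without a call. Among 10 tested Notch genes and 23 tested Hox genes, 0 were called in either direction. *Fst*, the follistatin gene, was lower, at 49.2 against 147 CPM, and of 10 tested lateral and cardiac genes *Prrx2* was the single call. The pluripotency factor gene *Pou5f1* was at 57.8 against 122 CPM and *Sox2* at 22.8 against 50.4 CPM, both without a call.

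Other sets of mesoderm were also compared, 1301 *Mesp1*-high cells (5 or more *Mesp1* UMIs, *Eomes* under 2) and 2114 *Hand1*-high cells (10 or more *Hand1* UMIs), neither of which met the *Tbx6*, *Hes7* and *Dll1* condition. Against *Mesp1*-high cells, 49 of 7195 genes (0.681%) were higher and 51 (0.709%) lower. Against *Hand1*-high cells, 91 of 7208 genes (1.26%) were higher and 96 (1.33%) lower. The Notch genes *Dll3*, *Notch1*, *Nrarp* and *Maml3* were higher in both comparisons, as were *Rspo3*, *Cdx1*, *Cdx2*, *Foxc1* and *Pcdh19*, and 8 of 15 and 11 of 15 tested Hox genes were higher. *Rspo3* was at 118 CPM in *Mesp1*-high and 39.5 CPM in *Hand1*-high cells. *Aldh1a2* was at 93.8 CPM in *Mesp1*-high cells and was not called against them. Of the lateral and cardiac genes, 5 of 11 tested were lower than in *Mesp1*-high cells and 8 of 12 than in *Hand1*-high cells, the 8 including *Hand1*, whose difference was fixed by the choice of that set. The 3 comparisons use the same 179 cells, so their counts are not independent of each other.

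PSM-like cells were also split by *Hes7*, which the rule used, so the split describes the members and its *Hes7* difference is no result. The 58 cells with 3 or more *Hes7* UMIs and the 53 cells with none had median depths of 24112.5 and 22481 UMIs. *Rspo3* was at 602 CPM with and 430 CPM without *Hes7* (ratio 1.40, 1.26 to 1.55), *Cdx1* at 98.1 against 39.4 CPM (2.49, 1.83 to 3.42) and *Cdx2* at 165 against 74.8 CPM (2.20, 1.76 to 2.77). The Wnt target *Sp5* was at 88.2 against 32.0 CPM (2.76, 1.97 to 3.92), the Fgf target *Spry4* at 25.5 against 8.16 CPM (3.12, 1.61 to 6.52) and *Hoxb9* at 85.7 against 31.3 CPM (2.74, 1.95 to 3.91). Other genes of these groups had intervals that include 1, with ratios of 1.32 (0.907 to 1.95) for *Axin2*, 1.204 (0.800 to 1.82) for *Dusp6*, 0.880 (0.666 to 1.16) for *Wnt5a*, 1.05 (0.746 to 1.49) for *Hoxd9* and 0.845 (0.705 to 1.01) for *Hoxb1*. Some posterior genes and signalling readouts were thus higher in the cells with more *Hes7*, and others were not. In the opposite direction, *Aldh1a2* was at 97.5 against 216 CPM (0.451, 0.370 to 0.548), *Hes1* at 70.8 against 146 CPM (0.487, 0.384 to 0.613), *Mesp1* at 54.0 against 236 CPM (0.229, 0.179 to 0.290) and *Hand1* at 45.3 against 151 CPM (0.300, 0.227 to 0.393). Other Notch and clock genes were mixed. *Hes5* had a ratio of 2.97 (1.30 to 7.59, from 26 and 8 UMIs) and *Maml3* of 1.44 (1.10 to 1.91). *Dll3*, *Notch1*, *Nrarp* and *Lfng* had ratios of 0.967, 1.30, 0.987 and 0.685, each with an interval that includes 1. *Lef1*, *Pcdh19* and *Foxc1* had ratios of 1.03, 1.05 and 0.863, also with intervals that include 1. *Tbx6* and *Dll1* are tied to *Hes7* by the rule, since a cell with no *Hes7* had to hold both.

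Splitting the same cells by *Mesp1* gave 44 cells with 5 or more UMIs (median depth 30027) and 90 with none (21466.5). With *Mesp1*, *Hes7* was at 34.1 against 100 CPM (0.340, 0.247 to 0.461), *Rspo3* at 377 against 631 CPM (0.598, 0.542 to 0.660), *Hand1* at 138 against 43.2 CPM (3.21, 2.50 to 4.13), *Gata6* at 42.5 against 8.83 CPM (4.82, 2.86 to 8.50) and *Lhx1*, a LIM homeobox gene, at 159 against 64.1 CPM. *Aldh1a2* was at 175 against 112 CPM (1.57, 1.31 to 1.87). *Foxc1* and *Pcdh19* had ratios of 0.834 (0.613 to 1.13) and 0.798 (0.626 to 1.01). The cells with *Mesp1* thus held more RNA of cardiac and lateral genes and less of *Hes7* and *Rspo3*. In the 12 cells with 10 or more *Hand1* UMIs, whose median depth was 53538 UMIs, *Hand2* was at 60.7 CPM against 5.14 CPM in the other 167 and *Hes7* at 9.35 against 85.3 CPM. The part that mixed droplets had in these 12 deep cells was not tested.

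**Figure D4:**
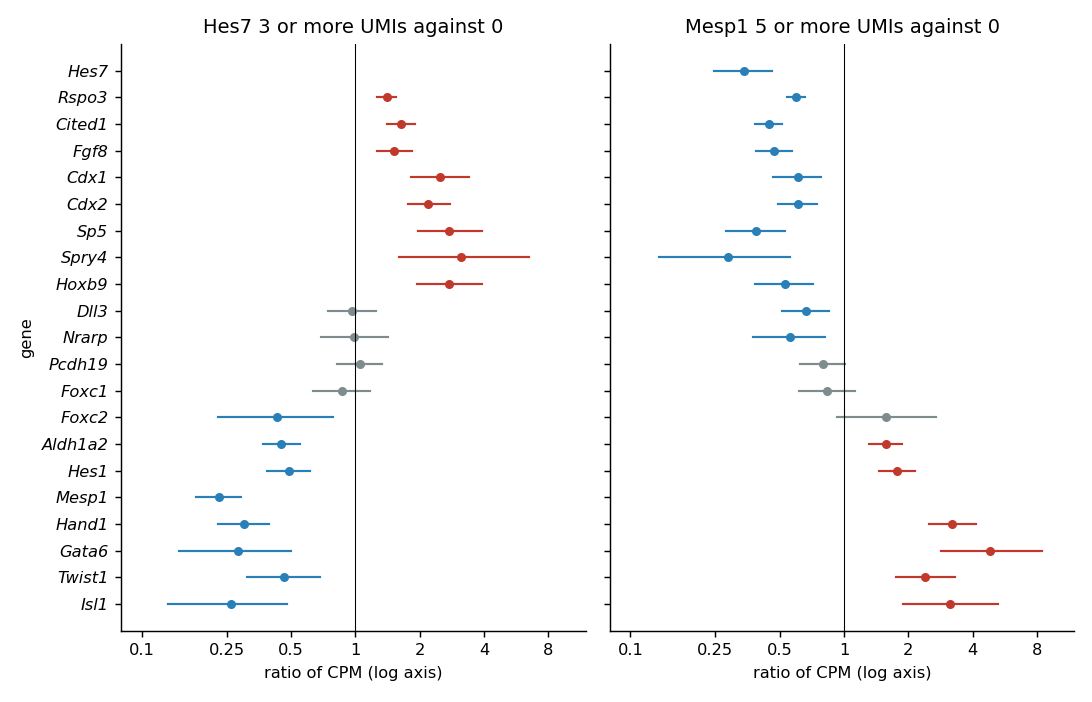
Ratio of CPM (log axis, with exact 95% intervals) between PSM-like cells with 3 or more *Hes7* UMIs and those with none, and between those with 5 or more *Mesp1* UMIs and those with none, for 21 genes. *Cdx1*, *Cdx2*, *Sp5* and *Hoxb9* lie above 1 in the *Hes7* split, and *Hand1* and *Aldh1a2* lie below 1 there and above 1 in the *Mesp1* split.

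The cells were also split by *T*, which the rule limits to at most 2 UMIs. The 88 cells with 1 or 2 *T* UMIs were compared with the 91 with none. *Cdx4* had a ratio of 2.61 (1.56 to 4.53), *Hoxb9* of 1.66 (1.31 to 2.12) and *Cdx1* of 1.48 (1.198 to 1.83). *Fgf8* had a ratio of 0.811 (0.700 to 0.939), *Dll3* of 0.713 (0.583 to 0.870) and *Mesp1* of 0.691 (0.595 to 0.803). *Rspo3* was at 1.01 (0.931 to 1.09) and *Aldh1a2* at 0.982 (0.846 to 1.14). *Dppa5a* had a ratio of 0.375 (0.334 to 0.421), but it was found in 43.18% of the cells with *T* and 43.96% of those without. Most *Dppa5a* UMIs lay in few cells, as given above, and the part of those cells in this ratio was not tested. By somite and boundary genes, 13 cells (7.26%) held at least 2 UMIs of *Meox1* plus *Tcf15*, 15 others (8.38%) at least 1 UMI of *Mesp2* or *Ripply2*, and 151 (84.4%) neither. Against the 151, the 13 cells had *Foxc2* at 33.2 against 12.9 CPM (2.56, 1.34 to 4.61) and *Hes7* with a ratio of 0.424 (0.240 to 0.698). The 15 cells had *Sp5* with a ratio of 0.211 and *Cdx1* of 0.369, but the posterior gene *Cyp26a1* of 2.92 (1.51 to 5.36). In the 13 cells *Sp5* and *Cdx1* had ratios of 1.06 (0.712 to 1.53) and 1.28 (0.909 to 1.75). The pluripotency gene *Dppa5a* was also higher in both small sets, at 873 and 677 CPM against 180 CPM. So were *Pou5f1*, with ratios of 2.50 and 2.27, and *Sox2*, with 3.61 and 2.55. In the 15 cells *Mesp1* was at 446 against 108 CPM and *Krt18* at 76.3 against 20.6 CPM. The part of such cells in these differences was not tested. *Tcf15*, used for the split, was at 10.2 CPM in all PSM-like cells and 8.64 CPM in other cells.

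The same rule was applied to the later libraries. It found 32 cells at day 5 (0.432%, 0.296 to 0.609), 94 at day 6 (1.61%, 1.30 to 1.96) and 7 at day 11 (0.0802%, 0.0322 to 0.165). Because depth differs between libraries, each cell was also thinned to 10000 UMIs, with a cell counted where at least 2 of *Tbx6*, *Hes7* and *Dll1* were found and *T* and *Eomes* were under 2. The shares were then 1.91% (135 of 7073 cells; 1.13% when thinned to 5000 UMIs) at day 4, 0.228% (0.130 to 0.370; 16 of 7023) at day 5, 1.05% (0.797 to 1.35; 59 of 5643) at day 6 and 0.0352% (2 of 5689) at day 11. The day 5 share was below those of days 4 and 6 in both counts. *T*-high cells numbered 172, 11, 74 and 0 over the 4 days. Day and library cannot be told apart in these data.

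The cells found by the rule at days 5 and 6 differed from those of day 4 in the levels of some genes. These cells were found on counts that were not thinned, and their median depths were 24241, 27547.5 and 37373.5 UMIs at days 4, 5 and 6. *Aldh1a2* was at 140 CPM (130 to 150) at day 4, 5.70 CPM (2.09 to 12.4) at day 5 and 10.9 CPM (8.13 to 14.4) at day 6, where the other cells were at 46.4, 1.26 and 10.2 CPM. *Cdx1* was at 73.4, 4.75 and 1.499 CPM, against 13.4, 0.9997 and 0.357 CPM in the other cells, and *Fgf8* at 146, 70.3 and 34.7 CPM, against 86.8, 12.8 and 16.2 CPM. *Rspo3* was at 502, 339 and 233 CPM, against 94.1, 41.2 and 41.2 CPM in the other cells of each day. These 4 genes were thus lower at the later days, in the other cells as well. The posterior gene *Fgf17* went the other way, at 9.57, 28.5 and 29.98 CPM, against 4.11, 2.91 and 8.89 CPM in the other cells. *Meox1* was at 6.05, 0.9497 and 111 CPM (102 to 121 at day 6), *Tcf15* at 10.2, 2.85 and 130 CPM (120 to 141), and *Uncx*, a gene of the rear part of each somite, at 0 UMIs on days 4 and 5 and 84 UMIs (18.0 CPM) on day 6. The other day 6 cells were at 34.2 CPM of *Meox1*, 15.8 CPM of *Tcf15* and 7.90 CPM of *Uncx*, and held 144, 1920 and 2 UMIs of them at day 4. *Hes7*, used by the rule, was at 75.8, 52.2 and 162 CPM and *Dll3* at 80.7, 58.9 and 88.0 CPM. *Hoxc10* was at 1.95, 1.90 and 141 CPM (131 to 153) and *Hoxd10* at 0, 1 and 100 UMIs, and the other day 6 cells were at 41.5 and 6.40 CPM. At day 4 the other cells were at 1.29 CPM of *Hoxc10* and 0.279 CPM of *Hoxd10*. The other cells thus also held more of these Hox genes at day 6, as they did of *Meox1*, *Tcf15* and *Uncx*. Their *Dll3* level was 21.3 CPM at day 4 and 5.69 CPM at day 6. The day 6 cells also held *Myl7* at 630 CPM, where the other day 6 cells were at 1063 CPM, and how much of this was free RNA was not tested.

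**Figure D5:**
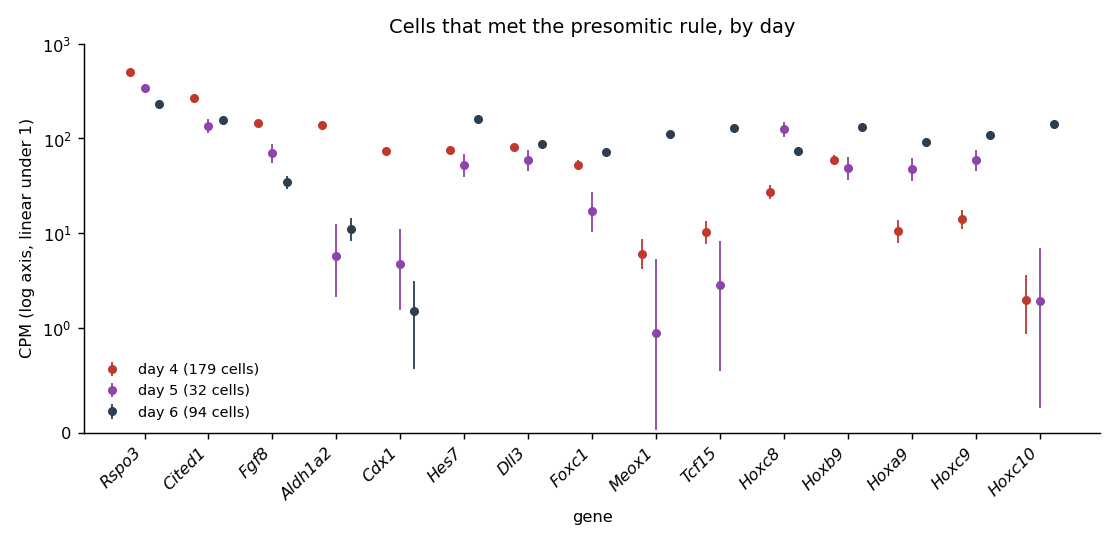
Level of 15 genes, in CPM (log axis, linear under 1) with exact 95% Poisson intervals, in the cells that met the rule at day 4 (179 cells), day 5 (32) and day 6 (94). *Aldh1a2*, *Cdx1* and *Fgf8* are highest at day 4, and *Meox1*, *Tcf15* and *Hoxc10* are highest at day 6.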

How the data were processed

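Single-cell RNA was measured in 4 libraries of Zx1 gastruloids, 1 per day. For each, the authors deposited raw UMI counts as a gene by barcode matrix, which were taken without change. The submitters' processing notes name the mm10 build and Cell Ranger 3.1.0, a version that the headers also give, except at day 11 (6.0.1). The annotation is not given in the sources used here. All CPM, percentages and ratios are new calculations on the counts the authors deposited.

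Cells were kept with at least 2000 UMIs and a mitochondrial share under 20%. The members, sets, splits and gene lists were chosen with earlier results of these data known. Genes named in the text are the rule genes, the given markers, members of 21 lists, the genes that define the other sets, the 20 highest and 15 lowest ratios of (CPM + 10) without mt-, Rpl and Rps genes, and, for the splits and later days, members of these lists. *Ddit3*, which has 2 identifiers, was left out of the stress list. Doublets were left in. As an alternative, the 8% of cells with the highest share of simulated doublets (2 per cell) among 60 neighbours were removed. Thinning to 10000 UMIs left out 1 PSM-like and 128 other cells. Intervals are Clopper-Pearson for shares, Poisson for CPM and conditional binomial for ratios. Depth ranged from 149169498 to 236714826 UMIs per library, and precision follows from the UMIs summed per set. Promoters came from RefSeq (GRCm38.p6), cut before the earlier of the RefSeq and GENCODE starts.

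Scripts were tested on simulated data and used Python 3.11.15, numpy 2.4.6, scipy 1.17.1, pandas 2.3.3, scikit-learn 1.9.0 and matplotlib 3.10.9.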

Additional observations from a re-analysis of the deposited data

How the results depend on the processing

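No paired analysis was possible because each day has 1 library, labelled replicate 1, and no test was made, and no replicate could be left out. The share of day 4 cells that met the rule (2.49%) was 3.33% with a limit of 2 UMIs, 1.56% with 5, 5.15% with no *T* and *Eomes* limit, 1.26% with *T* at 0, 1.91% on thinned counts and 1.71% without cells that met another set's condition (chosen after seeing the data). The 56 higher and 61 lower genes became 88 and 116 with 1 CPM added, 7 and 10 with 50 CPM added, 13 and 19 at a mean of at least 50 CPM, 119 and 151 at a fold of 1.5, and 15 and 14 at a fold of 3. The lower genes were 108 without cells of another set's condition, a setting that took out PSM-like cells alone and so tilted this count. With no *T* and *Eomes* limit, 39 of the 56 higher and 43 of the 61 lower genes were still called, and *Aldh1a2* was not, at a ratio of 1.69. In that setting the *T*-high cells count as members.

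Thinned to 5000 and 15000 UMIs and on deposited counts, the day 4 share (1.91% at 10000 UMIs) was 1.13%, 2.27% and 2.49%, the day 5 share (0.228%) was 0.0690%, 0.415% and 0.432%, and the day 6 share (1.05%) 0.767%, 1.46% and 1.61%. The day 11 share (0.0352%) was 0.188% at 15000 UMIs. Of 522 ratios of 58 named genes over 9 alternatives, 0 reversed, 292 stayed within the interval of the main value and 499 kept the call. With *T* at 0 UMIs, *Cdx2*, *Crabp2* and *Hoxd9* were among the genes no longer called. Depth limits genes with few UMIs, such as *Lfng*, *Msgn1*, *Mesp2* and *Ripply2*, for which no call was possible.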

Other observations

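Other genes called higher in PSM-like cells, chosen here after their values were seen, included secreted and membrane proteins. The Wnt receptor gene *Fzd10* was at 49.8 against 14.9 CPM in other cells (ratio 3.34, 2.92 to 3.79), and *Frzb*, a secreted Wnt antagonist, at 37.3 against 9.34 CPM (3.99, 3.42 to 4.63). The receptor gene *Gfra3* was at 21.5 against 3.85 CPM and the matrix gene *Smoc1* at 26.6 against 6.23 CPM. Among regulators, *Meis2*, a homeobox cofactor, was at 245 against 114 CPM (2.15, 2.03 to 2.28), *Dach1* at 41.2 against 14.4 CPM and the corepressor *Tle4* at 89.8 against 38.7 CPM.

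Further genes called lower, chosen in the same way, included the endothelial receptor gene *Flt1*, with 10 UMIs in PSM-like cells, at 1.95 against 20.5 CPM (0.0951, 0.0456 to 0.175), the pericyte gene *Rgs5* at 5.86 against 34.6 CPM and *Podxl* at 8.01 against 38.1 CPM. The Bmp ligand gene *Bmp2* was at 2.34 against 18.6 CPM (0.126, 0.0652 to 0.221) and the homeobox gene *Msx2* at 26.6 against 84.3 CPM (0.315, 0.264 to 0.373). *Tbx3* was at 39.8 against 101 CPM, and the imprinted genes *Peg10* and *Mest* at 27.5 against 85.6 CPM and 42.0 against 119 CPM.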
